A study of Mus musculus with 9 samples.

Results

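The 37 genes described here encode the steps of glycolysis, the handling of its end products lactate and pyruvate, and the cellular response to low oxygen. They were chosen by name from the 54347 genes in the deposited table, where each name stands for 1 gene except Aldoa, which a second, minor gene also carries and which here means the main one. Of the 37, 36 passed a filter of 1 CPM (a count relative to the depth of the library) or more in 3 or more of the 9 libraries, as did 15532 genes in all. Only the carbonic anhydrase gene Car9 did not pass.

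RNA came from 6 pancreatic neuroendocrine tumors of INS-p25OE mice and from 3 samples of normal C57BL/6 mouse islets, 1 library each. INS-p25OE mice carry 2 transgenes, tetOp-p25GFP and Ins2-rtTA, so that the insulin promoter drives rtTA in beta cells and doxycycline then switches on p25, an activator of the kinase Cdk5. Doxycycline was given in drinking water from weaning at 3 to 4 weeks of age, at 1 mg/L as the labels state. Elsewhere the study gives the dose in g/L with the same figure, so the dose is uncertain. The labels do not say whether the islet donors drank doxycycline, nor the age at which tumors or islets were taken. Per the study's methods, littermates without transgenes shared cages with INS-p25OE mice and served as normal controls. All mice were on a C57BL/6 background. Whether the sequenced islets came from such littermates is not stated. M1, M2 and M3 carry a tumor label with the word Inulin and are the functional tumors of the study. M4, M5 and M6 carry the plain tumor label and are non-functional. The study defines functional by raised hormone levels in blood plasma, which transcript levels do not measure. It found insulin by staining in all tumors it examined. M2 came from a female and the other 8 libraries from males. NI1, NI2 and NI3 are the islet libraries.

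Glycolysis splits glucose into pyruvate, and lactate dehydrogenase and monocarboxylate transporters then convert and export it as lactate. In beta cells pyruvate is instead passed to the mitochondria to couple glucose to insulin release, and Hk1, Ldha and Slc16a1 are textbook examples of genes kept low there. When oxygen falls, prolyl hydroxylases (Egln1, Egln3) no longer mark HIF proteins (Hif1a, Epas1) for destruction by Vhl, and HIF raises transcription of many glycolytic genes and of targets such as Adm and Bnip3 through the core motif ACGTG or GCGTG. Transcript levels of Hif1a itself do not report how much HIF protein a cell holds.

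That motif was looked for on both strands in the 250 bases before each RefSeq start site (build GRCm38.p6), which were given for 34 of the 37 genes. It occurred before at least 1 start site of 30 of the 34 (88.2%), against 11226 of 27025 genes (41.5%) in the whole RefSeq table. The windows of the 34 genes were also richer in G and C, with a median of 62.0% against 52.4%, and the motif holds a CG pair, so the shares are not matched on base composition. Ndrg1, Slc2a3 and Epas1 had no entry. The sequences shown are those of P4ha1, Ddit4 and Aldoa, which were lower in the tumors than in NI2 and NI3, of Ldha, the lactate dehydrogenase gene kept low in beta cells, and of Adm, higher in every tumor than in every islet library. Capitals mark the motif on either strand, and CACGTG in Ldha is the motif on both strands overlapping itself. Bases are 5′ to 3′ and stop before the first base of any GENCODE exon of the same gene, which shortens Ddit4 to 186 bases.
P4ha1, + strand, chr10:59323046-59323295: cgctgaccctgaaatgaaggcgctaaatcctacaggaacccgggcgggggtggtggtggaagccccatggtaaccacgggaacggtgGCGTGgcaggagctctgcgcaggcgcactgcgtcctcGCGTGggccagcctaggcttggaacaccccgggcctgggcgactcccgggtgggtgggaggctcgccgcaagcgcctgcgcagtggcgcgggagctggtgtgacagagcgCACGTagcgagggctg
Ddit4, - strand, chr10:59951835-59952020: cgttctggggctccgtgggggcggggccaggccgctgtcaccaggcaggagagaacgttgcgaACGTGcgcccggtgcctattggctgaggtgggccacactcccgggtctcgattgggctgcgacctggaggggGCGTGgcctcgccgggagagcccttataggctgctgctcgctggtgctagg
Aldoa, - strand, chr7:126799255-126799504: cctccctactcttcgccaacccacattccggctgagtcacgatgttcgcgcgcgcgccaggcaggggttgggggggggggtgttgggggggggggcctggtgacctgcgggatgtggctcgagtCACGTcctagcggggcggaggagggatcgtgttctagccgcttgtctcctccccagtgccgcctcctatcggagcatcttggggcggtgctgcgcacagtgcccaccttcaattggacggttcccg
Ldha, + strand, chr7:46845554-46845803: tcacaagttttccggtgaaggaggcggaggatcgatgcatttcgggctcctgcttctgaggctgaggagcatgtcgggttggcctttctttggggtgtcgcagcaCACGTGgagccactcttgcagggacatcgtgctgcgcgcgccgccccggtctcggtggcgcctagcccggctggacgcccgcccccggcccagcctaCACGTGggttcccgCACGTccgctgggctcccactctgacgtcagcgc
Adm, + strand, chr7:110627407-110627656: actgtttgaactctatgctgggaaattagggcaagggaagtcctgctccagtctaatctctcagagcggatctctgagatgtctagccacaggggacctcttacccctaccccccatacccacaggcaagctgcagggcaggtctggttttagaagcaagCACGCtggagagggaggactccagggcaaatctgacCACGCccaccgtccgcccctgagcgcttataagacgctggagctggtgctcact

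In the windows shown, P4ha1 held 3 matches, Ddit4 2, Aldoa 1, Adm 2 and Ldha 5, where the overlapping palindromes count on each strand. Windows before further start sites are not printed. Those of Aldoa held 1 match, the same as in the window shown, and 0 matches, and that of Ldha held 1. Genes that were higher and genes that were lower in the tumors thus both carried the motif. The windows of Aldoc and Pfkfb4 held 1 match before each start site, but reach into annotated exons and are not printed. A match of 5 letters is a description of the sequence and not a binding site.

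The islet label of NI1 was at odds with the targeted gene. Cdk5r1, the gene that encodes p35 and thereby p25, stood at 149 to 401 CPM in the tumors. It was at 280 CPM in NI1, while NI2 had 18.4 CPM and NI3 12.5 CPM (CPM here and below are scaled by edgeR's TMM method). NI1 was also closer to tumor M6 than any other pair of libraries were to each other, with a median absolute difference of 0.105 on the log2(CPM + 1) scale over the 15532 genes. The next closest pair, NI2 and NI3, differed by 0.205, and NI1 differed from NI2 by 0.341. Of the 36 glycolysis and hypoxia genes, 27 lay within 1.2-fold between NI1 and M6, 13 between NI1 and NI2, and 12 between NI2 and NI3. Calls among the 36 genes, and fold changes against islets that carry a standard error (SE), are therefore given with NI1 and without it. Totals were between 36468280 and 63637175 counts per library, and a count of 3, taken as the floor, stood for 0.0425 to 0.119 CPM. Mitochondrial genes held 32.1% of all counts of M4 and 1.76% to 8.41% of those of the other libraries. The summed level of 10 beta cell marker genes, made up mostly of Ins2, Ins1 and Iapp, was not higher in the tumors named functional. Gene by gene, 5 of the 10 had a log2 fold change above 0 in functional against non-functional tumors. Against all 3 islet libraries, 3 of the 10 were above 0 in the tumors. The sum was 18880 to 91120 CPM in functional and 64770 to 117200 CPM in non-functional tumors. It was 122400 CPM in NI1, 328000 CPM in NI2 and 365700 CPM in NI3.

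**Figure D1:**
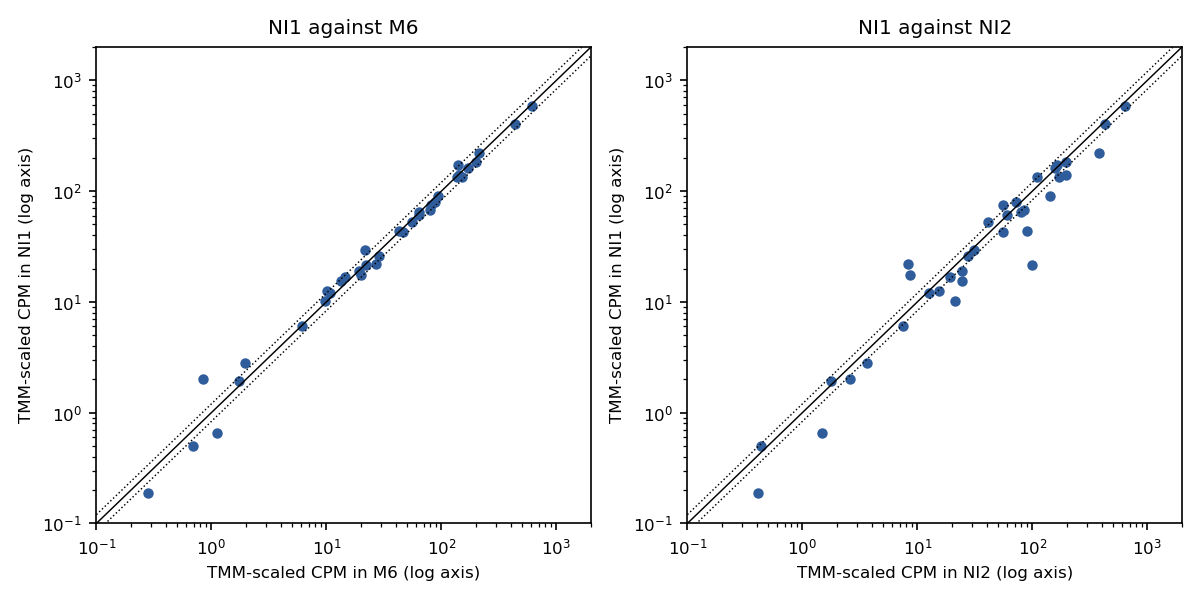
Level of the 36 tested genes in NI1 (vertical, TMM-scaled CPM, log axis) against M6 (left) and NI2 (right), 1 point a gene. The solid line marks equal levels and the dotted lines 1.2-fold, within which 27 genes lie on the left and 13 on the right.

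With all 9 libraries, 0 of the 36 genes were higher and 0 were lower in the 6 tumors than in the islets at an adjusted p under 0.05 (edgeR's quasi-likelihood test, Benjamini-Hochberg over 15532 genes). Over all genes tested, 0% were higher and 0.258% were lower. At an unadjusted p under 0.05, 5 of the 36 (Aldoc, Tpi1, Eno2, Egln3 and Adm) were higher and 4 (Aldoa, Ldhb, P4ha1 and Ddit4) lower. Among all genes 10.7% were higher and 9.14% lower. Egln3 and Adm were under 1 CPM in every islet library and passed the filter only through tumors. Such a filter favors genes that are higher in tumors. DESeq2 on the same libraries called 3 higher (Aldoc, Eno2 and Adm) and 3 lower (Aldoa, P4ha1 and Ddit4), where it called 4.92% of all genes higher and 3.14% lower. The median log2 fold change of the 36 was -0.07, against 0.03 over all genes, and 16 of 36 (44.4%) lay above 0, against 52.5%.

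Without NI1, 5 of the 36 passed the same test against NI2 and NI3. Pfkfb4 and Aldoc rose (2 of 36, where 5.34% of all genes were called higher), and Aldoa, P4ha1 and Ddit4 fell (3 of 36, where 3.17% of all genes were called lower). DESeq2 called 3 higher (Pfkfb4, Aldoc and Eno2) and 4 lower (Aldoa, Pdk3, P4ha1 and Ddit4) here, against 12.3% and 6.7% of all genes. The median log2 fold change of the 36 was -0.15, against 0.05 over all genes. Scaling by library totals alone moved the median of all genes by 0.36 on the log2 scale in this fit, and left 2 of the genes higher and 0 lower, with 992 genes (6.39%) higher and 216 (1.39%) lower over the table in place of 829 and 492. With either NI2 or NI3 also left out, 1 islet library remained, which was assumed to vary like the tumors. Without NI2, 0 of the 36 were higher and 0 lower, against 0.921% and 0.348% of all genes. Without NI3, 0 were higher and 1 (Ddit4) lower, against 0.212% and 0.328%.

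**Figure D2:**
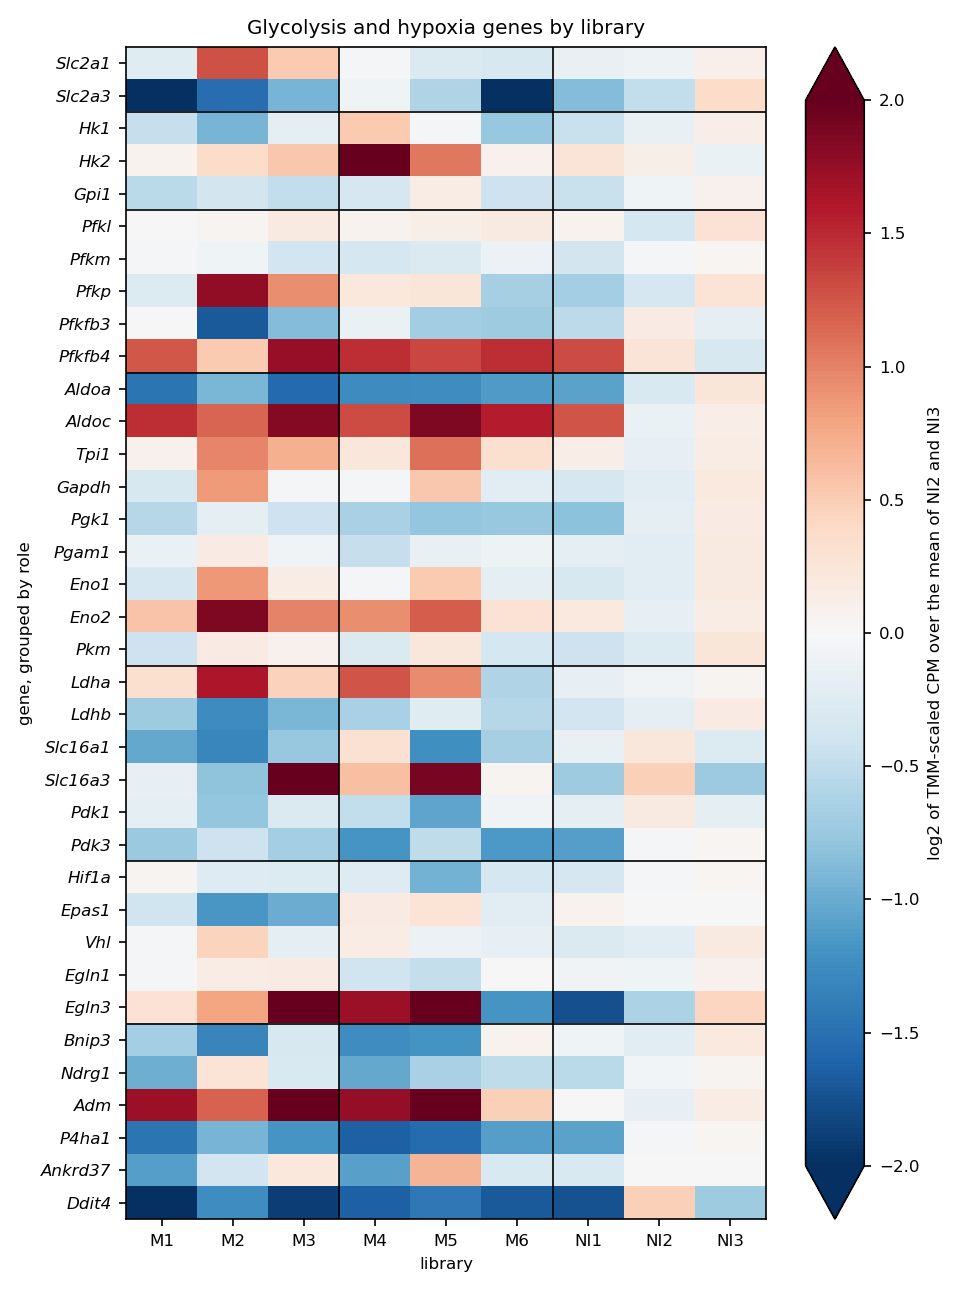
Level of each tested gene in each library, as the log2 of its TMM-scaled CPM over the mean of NI2 and NI3, red for higher and blue for lower. Columns are libraries, rows are genes in the order of their roles, and colors stop at 2 in either direction. Pfkfb4 and Aldoc are red and Aldoa, P4ha1 and Ddit4 blue in all 6 tumors, and NI1 shares those colors with the tumors.

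All 6 tumors were above all 3 islet libraries for 2 of the 36 genes, Eno2 and Adm, against 4.5% of all genes, and below them for 0, against 3.17%. Against NI2 and NI3 alone, all tumors were above for 4 genes (Pfkfb4, Aldoc, Eno2 and Adm), against 16.6% of all genes. They were below for 7 genes (Pfkm, Aldoa, Pgk1, Ldhb, Pdk3, P4ha1 and Ddit4), against 16.3%.

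Glucose enters the pathway through the GLUT transporters, of which Slc2a1 (GLUT1) and Slc2a3 (GLUT3) were followed. The level of Slc2a1 was 11.4, 32.6 and 19.5 CPM in M1, M2 and M3, 13.3, 11.1 and 10.8 CPM in M4, M5 and M6, and 12.1, 12.5 and 14.5 CPM in NI1, NI2 and NI3. Only M2 and M3 stood above the islets. Slc2a3 was low throughout, at 0.844 to 3.45 CPM in the tumors and 2.01, 2.59 and 4.71 CPM in NI1, NI2 and NI3. Neither gene passed the test, with or without NI1. The mouse beta cell transporter GLUT2, Slc2a2, ranged from 22.8 to 317 CPM in the tumors, and per kb of exon its level over that of Slc2a1 was 0.426 to 16.9 in tumors, 6.08 in NI1, 11.97 in NI2 and 14.0 in NI3.

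Hexokinases then trap glucose as its phosphate. Hk1, the housekeeping hexokinase kept low in beta cells, was at 12.3, 8.92 and 15.0 CPM in M1, M2 and M3, 24.4, 16.7 and 10.05 CPM in M4, M5 and M6, and 12.5, 15.4 and 18.6 CPM in NI1, NI2 and NI3. Tumors and islets overlapped, and M4, the library rich in mitochondrial reads, was the highest. M4 also held the highest sums of fibroblast (239 CPM), pericyte (1543 CPM) and macrophage (1164 CPM) genes. Their part in the levels of Hk1, Hk2 and Slc16a1 in M4 was not tested. The log2 fold change of Hk1 was -0.09 (SE 0.32, 95% interval -0.81 to 0.62, adjusted p = 0.903 from edgeR), and -0.22 (SE 0.38, interval -1.07 to 0.62, adjusted p = 0.742) without NI1. The sign turned with scaling by library totals (0.09, or 0.08 without NI1) and without M2 (0.02) or NI3 (0.06). Hk2, a hexokinase that HIF can raise, was at 7.25 CPM in M4 and at 1.71 to 3.37 CPM in the other tumors, against 1.49 to 1.94 CPM in the islets. Gpi1, which isomerises the sugar phosphate, was at 125 to 202 CPM in tumors and 134 to 193 CPM in islets.

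Phosphofructokinase commits the sugar to glycolysis. The liver form Pfkl was the most even gene among the tumors, at 71.3 to 81.0 CPM, and the muscle form Pfkm lay between 67.0 and 84.4 CPM. The platelet form Pfkp varied more, at 25.3, 105 and 58.6 CPM in M1, M2 and M3, 35.6, 36.1 and 19.4 CPM in M4, M5 and M6, and 19.1, 24.4 and 36.98 CPM in NI1, NI2 and NI3. M2 alone stood far above the islets. None of the 3 subunit genes passed the test.

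Pfkfb4 makes fructose 2,6-bisphosphate, the activator of phosphofructokinase. It lies on chromosome 9 from 108991778 to 109032228 (GRCm38). Its level was 16.8, 10.2 and 23.7 CPM in M1, M2 and M3, 19.8, 17.98 and 19.8 CPM in M4, M5 and M6, and 17.6, 8.54 and 5.68 CPM in NI1, NI2 and NI3. Every tumor exceeded NI2 and NI3, M2 narrowly, while NI1 lay among the tumors. Against NI2 and NI3 its log2 fold change was 1.34 (SE 0.36, adjusted p = 0.0489 from edgeR), and with NI1 included 0.77 (SE 0.38, adjusted p = 0.286). Pfkfb4 was also the weakest of the 5 calls, and was lost when any tumor other than M2 was left out (adjusted p = 0.0664 to 0.075), and without NI2 (0.154) or NI3 (0.397). Pfkfb3, which makes the same activator, was lower in M2, at 6.85 CPM, than in the other tumors, at 12 to 22.1 CPM, and stood at 15.3, 24.5 and 19.4 CPM in NI1, NI2 and NI3.

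Aldolase splits the phosphorylated sugar, and its A and C forms moved in opposite directions against NI2 and NI3. Aldoa, the form of muscle and most tissues, lies on chromosome 7 from 126795234 to 126800751. It was at 169, 246 and 157 CPM in M1, M2 and M3, 195, 196 and 211 CPM in M4, M5 and M6, and 221, 377 and 550 CPM in NI1, NI2 and NI3. All 6 tumors were below NI2 and NI3, and NI1 was within their range. The log2 fold change was -1.24 without NI1 (SE 0.23, adjusted p = 0.0148) and -0.97 with it (SE 0.26, adjusted p = 0.152, both from edgeR).

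Aldoc, the form of brain and other neural tissue, lies on chromosome 11 from 78322968 to 78327781. It was at 25.5, 20.5 and 32.7 CPM in M1, M2 and M3, 22.7, 33.5 and 27.2 CPM in M4, M5 and M6, and 21.9, 8.34 and 10.04 CPM in NI1, NI2 and NI3. The tumors did not overlap with NI2 and NI3. Without NI1 the log2 fold change was 1.55 (SE 0.27, adjusted p = 0.0125), and with it 1.01 (SE 0.32, adjusted p = 0.167, both from edgeR). Per kb of exon, Aldoa exceeded Aldoc 50.6 times in NI2 and 61.5 times in NI3, but 5.39 to 13.4 times in the tumors and 11.3 times in NI1. Both genes kept their direction in every alternative, though without NI2 or NI3 as well neither passed (adjusted p = 0.0536 and 0.223 for Aldoa, 0.116 and 0.119 for Aldoc).

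**Figure D3:**
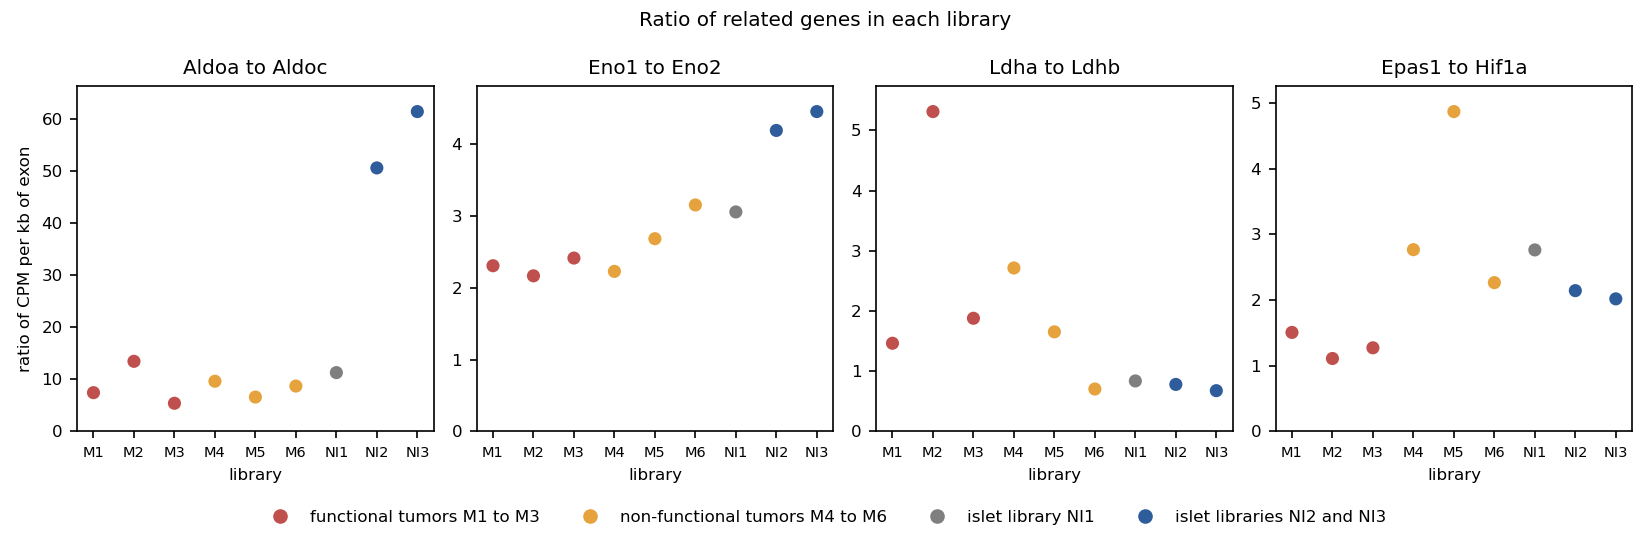
Ratio of 4 pairs of related genes in each library, each level as CPM per kb of annotated exon, linear axes from 0, 1 point a library. Aldoa to Aldoc is 50.6 and 61.5 in NI2 and NI3 and at most 13.4 elsewhere, and Epas1 to Hif1a is 1.11 to 1.51 in functional and 2.26 to 4.87 in non-functional tumors.

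Enolase also has forms of different tissues. Eno2, the neuron-specific enolase that also serves as a marker of neuroendocrine tumors, was at 68.4, 168 and 91.6 CPM in M1, M2 and M3, 87.2, 106 and 56.0 CPM in M4, M5 and M6, and 52.5, 41.2 and 50.8 CPM in NI1, NI2 and NI3. All tumors were above all islet libraries, with M6 and NI1 next to each other. Its log2 fold change was 1.00 (SE 0.32, adjusted p = 0.167 from edgeR), and 1.06 without NI1 (SE 0.39, adjusted p = 0.122). DESeq2 called it in both fits (adjusted p = 0.0352 and 0.0373). Eno1, the ubiquitous form, was at 180.5 to 415 CPM in tumors and 184 to 259 CPM in islets, and its ratio to Eno2 per kb of exon was 2.17 to 3.16 in tumors, 3.06 in NI1, 4.19 in NI2 and 4.46 in NI3.

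The remaining enzymes between aldolase and pyruvate did not separate tumors from islets. Triose phosphate isomerase, Tpi1, was at 129 to 262 CPM in tumors and 109 to 134.5 CPM in islets. Phosphoglycerate kinase, Pgk1, was at 107, 139 and 120 CPM in M1, M2 and M3 and at 102, 93.2 and 94.1 CPM in M4, M5 and M6, against 90.2, 141.5 and 178 CPM in NI1, NI2 and NI3. All tumors thus lay below NI2 and NI3 for Pgk1, but its log2 fold change without NI1, -0.55 (SE 0.21), missed the threshold (adjusted p = 0.127 from edgeR), as did that with NI1, -0.32 (SE 0.22, adjusted p = 0.438). Glyceraldehyde-3-phosphate dehydrogenase, Gapdh, ranged from 403 to 913 CPM in tumors and 399 to 576 CPM in islets, and pyruvate kinase, Pkm, from 583 to 907 CPM and 581 to 913.5 CPM. Phosphoglycerate mutase, Pgam1, ranged from 134 to 206 CPM in tumors and 159 to 209 CPM in islets. Aldoa, Tpi1, Gapdh, Pgk1, Pgam1, Eno1, Pkm and Ldha have near-identical pseudogene copies that can share reads, and how salmon divided such reads was not checked.

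**Figure D4:**
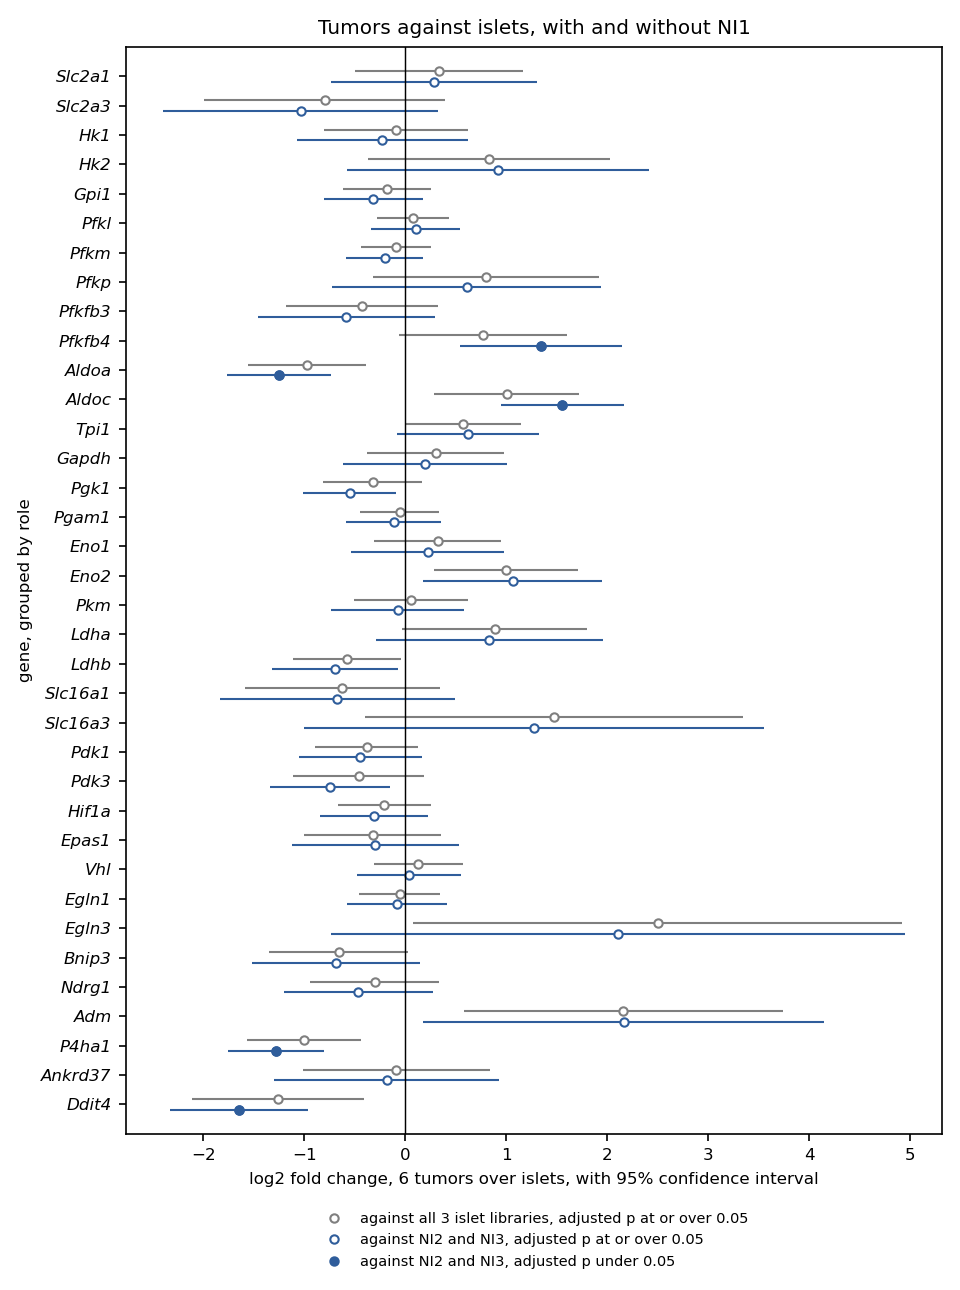
Log2 fold change of the 6 tumors over islets for each tested gene, with its 95% confidence interval, against all 3 islet libraries (gray) and against NI2 and NI3 (blue). Filled points passed an adjusted p of 0.05, which were Pfkfb4, Aldoa, Aldoc, P4ha1 and Ddit4 against NI2 and NI3 and none against all 3.

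Ldha, the subunit that favors lactate and is kept low in beta cells, was at 40.8, 101 and 45.2 CPM in M1, M2 and M3 and at 78.4, 63.2 and 21.5 CPM in M4, M5 and M6. The islets were at 29.3, 31.3 and 34.2 CPM in NI1, NI2 and NI3. Of the 6 tumors, 5 lay above all islet libraries and M6 lay below them. The log2 fold change was 0.89 (SE 0.41, 95% interval -0.03 to 1.80, adjusted p = 0.265 from edgeR), and 0.83 without NI1 (SE 0.50, interval -0.29 to 1.96, adjusted p = 0.32). A rise of Ldha was therefore not shown, and the upper ends of both intervals lie well above 0. Over 19 alternatives the value stayed between 0.66, without M2, and 1.06, without M6.

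Ldhb, the subunit that favors pyruvate, was at 13.2, 9.02 and 11.4 CPM in M1, M2 and M3, 13.7, 18.2 and 14.5 CPM in M4, M5 and M6, and 16.6, 19.1 and 24.0 CPM in NI1, NI2 and NI3. Its log2 fold change of -0.58 (SE 0.24) did not pass (adjusted p = 0.23 from edgeR), nor did -0.69 without NI1 (SE 0.28, adjusted p = 0.15). Per kb of exon, Ldha over Ldhb was 1.46, 5.31 and 1.88 in M1, M2 and M3, 2.71, 1.65 and 0.702 in M4, M5 and M6, and 0.837, 0.779 and 0.675 in NI1, NI2 and NI3. The ratio was thus higher than in any islet library in 5 tumors, and in M6 it lay among the islets. Whether Ldha or Ldhb was the more abundant in islets depends on the length, since with the longest transcript in place of the exons the islet median was 1.18 rather than 0.779.

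Monocarboxylate transporters carry lactate and pyruvate across the cell membrane. Slc16a1 (MCT1), whose silence in beta cells prevents insulin release on exercise, was at 1.53, 1.26 and 1.85 CPM in M1, M2 and M3, 3.84, 1.33 and 1.97 CPM in M4, M5 and M6, and 2.81, 3.66 and 2.58 CPM in NI1, NI2 and NI3. Of the tumors only M4 exceeded the islets. The log2 fold change was -0.62 (SE 0.43, 95% interval -1.59 to 0.34, adjusted p = 0.445 from edgeR), and -0.67 (SE 0.52, interval -1.83 to 0.49, adjusted p = 0.438) without NI1. Slc16a3 (MCT4), the lactate exporter of glycolytic cells, was at 7.20 CPM in M3 and 3.98 CPM in M5, and between 0.609 and 1.63 CPM in the other tumors, against 0.644 to 1.49 CPM in the islets. The pyruvate dehydrogenase kinases, which turn pyruvate away from the mitochondria, did not pass the edgeR test, though DESeq2 called Pdk3 lower without NI1 (adjusted p = 0.0479). Pdk1 was at 23.5 to 46.5 CPM in tumors and 42.7 to 55.2 CPM in islets, and Pdk3 at 9.55 to 16.3 CPM in tumors, 10.1 CPM in NI1, 21.1 CPM in NI2 and 22.1 CPM in NI3.

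Among the oxygen sensors, Hif1a was at 42.7 to 86.0 CPM in tumors and 65.4 to 84.9 CPM in islets. Vhl was at 28.03 to 43.3 CPM in tumors and 26.0 to 35.99 CPM in islets, and Egln1 at 46.0 to 71.5 CPM and 60.2 to 67.4 CPM. None of these 3 passed the test. Egln3, the prolyl hydroxylase that HIF itself raises, varied most of all 36 genes, by 33.7-fold among tumors. It was at 0.786, 1.10 and 9.49 CPM in M1, M2 and M3, 2.10, 2.83 and 0.281 CPM in M4, M5 and M6, and 0.189, 0.415 and 0.867 CPM in NI1, NI2 and NI3. M3 stood apart, and M1 and M6 fell among the islets.

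The HIF targets outside glycolysis did not move together. Adm, a secreted vasodilator peptide, was at 1.61, 1.12 and 5.82 CPM in M1, M2 and M3, 1.67, 2.38 and 0.686 CPM in M4, M5 and M6, and 0.497, 0.439 and 0.545 CPM in NI1, NI2 and NI3. Every tumor was above every islet library, and M3 was again the highest. With all 3 islet libraries under 1 CPM, Adm passed the filter only through tumors, so its selection favored this direction. Its log2 fold change was 2.16 (SE 0.71, adjusted p = 0.168 from edgeR), and 2.16 without NI1 (SE 0.88, adjusted p = 0.156). DESeq2 called it with all 9 libraries (adjusted p = 0.0372) and not without NI1 (0.0597).

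P4ha1 encodes the catalytic subunit of collagen prolyl 4-hydroxylase. It lies on chromosome 10 from 59323296 to 59373304. Its level was 33.3, 48.4 and 40.7 CPM in M1, M2 and M3, 29.6, 31.7 and 43.0 CPM in M4, M5 and M6, and 43.8, 89.6 and 94.4 CPM in NI1, NI2 and NI3. The tumors reached at most a little over NI1 and stayed well under NI2 and NI3. Without NI1 the log2 fold change was -1.28 (SE 0.21, adjusted p = 0.0104 from edgeR), the smallest adjusted p among the 36 genes, and with it -1.01 (SE 0.25, adjusted p = 0.148). Without NI2 or NI3 as well, the adjusted p was 0.0764 or 0.12.

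Ddit4 (REDD1), an inhibitor of mTORC1 that hypoxia and other stresses raise, lies on chromosome 10 from 59949669 to 59951834. It was at 16.2, 29.9 and 19.2 CPM in M1, M2 and M3, 22.8, 26.2 and 22.2 CPM in M4, M5 and M6, and 21.3, 98.5 and 43.6 CPM in NI1, NI2 and NI3. The pair NI2 and NI3 differed more from each other than the 6 tumors did in fold. The log2 fold change was -1.64 without NI1 (SE 0.30, adjusted p = 0.0153 from edgeR), -1.26 with it (SE 0.38, adjusted p = 0.161) and -0.94 without NI1 and NI2 (adjusted p = 0.209).

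**Figure D5:**
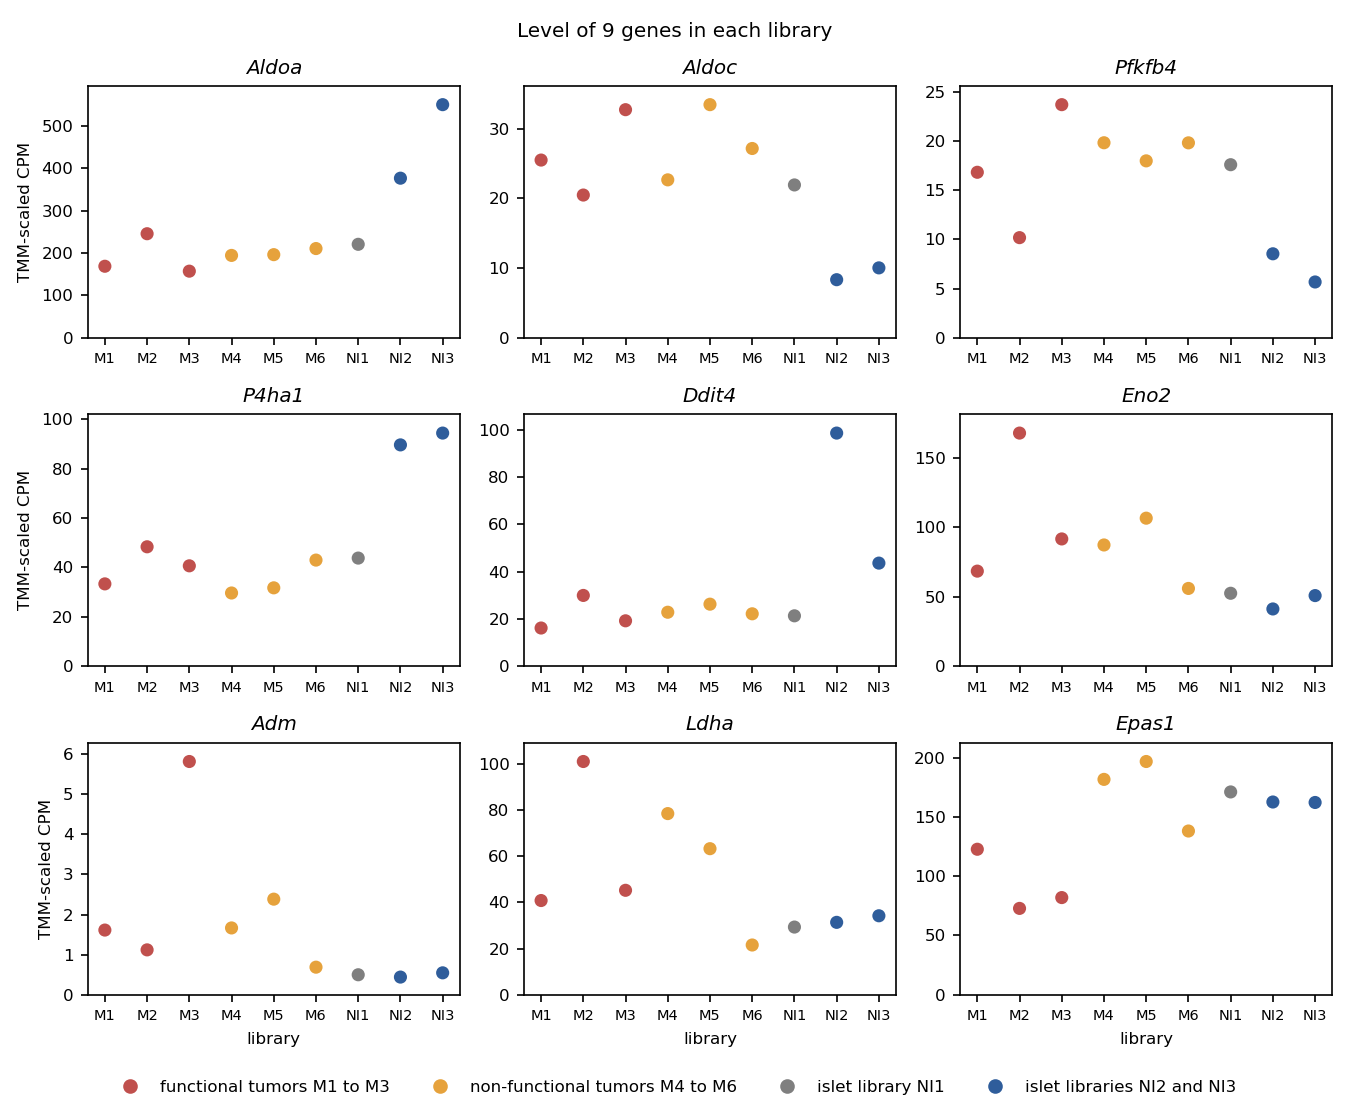
TMM-scaled CPM of 9 genes in each library, linear axes from 0, 1 point a library, colored by group. Aldoa, P4ha1 and Ddit4 are lower and Aldoc and Pfkfb4 higher in all tumors than in NI2 and NI3, Eno2 and Adm are above all islets in every tumor, and Epas1 is lower in M1, M2 and M3 than in M4, M5 and M6.

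Genes that respond to tissue dissociation were also lower in the tumors. The 15 listed genes, led by Fos, summed to 187 to 414 CPM in the tumors, 865 CPM in NI1, 3208 CPM in NI2 and 1808 CPM in NI3, and 12 of the 15 were called lower without NI1. Ddit4 was highest in NI2, where this sum was also highest, while Aldoa and P4ha1 were highest in NI3. In NI1 the sum was above that of every tumor, while Aldoa, P4ha1 and Ddit4 lay within the tumor range. Proliferation genes were instead higher in the tumors. They summed to 53.2 CPM in NI3, 167 CPM in NI2, 314 CPM in NI1 and 331.5 to 985 CPM in tumors. Without NI1, 8 of 10 were called higher. Macrophage genes summed to 419 to 1164 CPM in tumors and 175 to 392 CPM in islets (8 of 8 above 0 in log2 fold change, 3 called without NI1), and acinar genes to 0.766 to 242 CPM in tumors and 366 to 6806 CPM in islets. The part of these in the glycolysis and hypoxia genes was not tested. In bulk tissue, fewer cells of a type and less RNA per cell cannot be told apart.

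None of the other HIF targets among the 36 passed the test. Bnip3, a mitophagy receptor, was at 33.6 to 88.3 CPM in tumors and 72.2 to 96.5 CPM in islets, with a log2 fold change of -0.66 (SE 0.31, adjusted p = 0.272 from edgeR), and of -0.69 without NI1 (SE 0.37, adjusted p = 0.268). Ndrg1 was at 101 to 248 CPM in tumors and 141 to 213 CPM in islets, and Ankrd37 at 3.49 to 12.1 CPM and 6.05 to 7.58 CPM. Car9, the cell-surface carbonic anhydrase used as a hypoxia marker, had 16, 36 and 26 counts in M1, M2 and M3, 64, 47 and 25 in M4, M5 and M6, 26 in NI1 and 1 in NI2. It had 0 in NI3, which allows up to 0.0743 CPM at the floor. Car9 was thus counted in every tumor and in NI1 above that floor, and at or under it in NI2 and NI3. With the filter on low counts lifted, edgeR called Car9 higher in tumors than in NI2 and NI3 (adjusted p = 0.0482, with 2.49% of all genes called higher), while Pfkfb4 no longer passed (0.0577).

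Functional and non-functional tumors differed in 0 of the 36 genes in either direction at an adjusted p under 0.05 by edgeR, as did 0% of all genes. DESeq2 also called 0 of the 36, and 22 genes (0.142%) higher and 89 (0.573%) lower over the table. At an unadjusted p under 0.05, 1 gene (Slc2a1) was higher and 1 (Epas1) lower in functional tumors, against 4.71% and 5.58% of all genes. The 3 tumors of each kind did not overlap for Pgk1, higher in functional tumors, and for Ldhb and Epas1, lower there, which is 3 of 36 against 15% of all genes.

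Epas1 encodes HIF-2α, the HIF subunit prominent in endothelium. It was at 123, 72.9 and 82.0 CPM in M1, M2 and M3, 182, 197 and 138 CPM in M4, M5 and M6, and 171, 163 and 162 CPM in NI1, NI2 and NI3. The functional tumors lay below all other libraries. The log2 fold change between the tumor kinds was -0.90 (SE 0.23, unadjusted p = 0.00387, adjusted p = 0.455 from edgeR). Per kb of exon, Epas1 over Hif1a was 1.11 to 1.51 in functional tumors, 2.26 to 4.87 in non-functional tumors and 2.02 to 2.76 in islets. Endothelial genes moved the same way, with sums of 434 to 1107 CPM in functional and 1016 to 1384 CPM in non-functional tumors, log2 fold changes below 0 for 10 of 10, and 3 of 10 at an unadjusted p under 0.05, of which the part in Epas1 was not tested.

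The other genes with the smallest p-values between the tumor kinds each leaned on a single tumor or were small. Slc2a1 had a log2 fold change of 0.85 (SE 0.35, adjusted p = 0.48 from edgeR), which became 0.40 without M2. Pfkp had 1.06 (SE 0.49, adjusted p = 0.497), which became 0.47 without M2, and Egln1 had 0.37 (SE 0.18, adjusted p = 0.506). On the lower side, Hk2 had -0.998 (SE 0.54, adjusted p = 0.545), which became -0.31 without M4, and Ldhb had -0.46 (SE 0.25, adjusted p = 0.548). Scaling by library totals shifted the median of all genes by 0.31 on the log2 scale here.

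Individual tumors varied widely for some of the genes. The highest tumor exceeded the lowest by a median of 2.28-fold over the 36 genes, from 1.14-fold for Pfkl to 33.7-fold for Egln3. The spread was under 2-fold for 14 genes and over 4-fold for 7. M2, the female tumor, was the highest for 14 of the 36 and for 6 of the 9 genes between aldolase and pyruvate kinase. M2 was also the lowest for 9 of the 36, as was M1, while M3 led Egln3, Adm and Slc16a3. Neither these ranks nor the spread were counted over all genes tested, so they are not read as particular to these genes. Sex and the single library M2 cannot be told apart.

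Genes of the same pathways outside the 37 were read in 4 lists, of which edgeR called 0 genes with all 9 libraries. DESeq2 then called 1 lower (G6pc2) among glycolysis and pyruvate genes, 1 lower among HIF pathway components, 3 higher and 1 lower among HIF targets, and 1 higher and 1 lower among genes kept low in beta cells. Without NI1, 1 of 27 tested genes of glycolysis and pyruvate use rose and 1 fell. Pfkfb1, a relative of Pfkfb4, rose by a log2 fold change of 2.47 (SE 0.48, adjusted p = 0.019 from edgeR), against 1.38 with NI1 (SE 0.56, adjusted p = 0.218). Its level was 2.38 to 3.73 CPM in tumors, 2.52 CPM in NI1, 0.683 CPM in NI2 and 0.471 CPM in NI3. It passed the filter only through the tumors and NI1, which favors this direction. The islet glucose-6-phosphatase gene G6pc2 fell (-1.78, SE 0.44, adjusted p = 0.0388), against -1.39 with NI1 (SE 0.47, adjusted p = 0.174). Hk3 (1.39, adjusted p = 0.235) and Pdp1 (0.66, adjusted p = 0.425) were next upward, and Pdha1 (-0.75, adjusted p = 0.0625) and Mdh1 (-0.78, adjusted p = 0.0941) next downward. DESeq2 without NI1 called 1 higher (Pfkfb1) and 4 lower (G6pc2, Pdha1, Mdh1 and Pdk4), against 12.3% and 6.7% of all genes. Pfkfb1 and Pfkfb4 were thus both called higher against NI2 and NI3, Pfkfb4 narrowly, while Pfkfb3 and Pfkfb2 were not. Pfkfb2, the more abundant relative at 43.4 to 179 CPM in the tumors, had 0.008 (adjusted p = 0.993 from edgeR) without NI1.

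Of 9 tested HIF pathway components, Cited2, which competes with HIF for its coactivator, fell (-1.40, SE 0.18, adjusted p = 0.00354 from edgeR, without NI1), and had -1.08 with NI1 (SE 0.27, adjusted p = 0.142). Cul2 (-0.31, adjusted p = 0.404) and Arnt2 (-1.18, adjusted p = 0.543) were next downward. Elob (0.24, adjusted p = 0.754), Eloc (0.11, adjusted p = 0.765) and Rbx1 (0.04, adjusted p = 0.944) had the smallest p-values upward. Of 24 other tested HIF targets, 2 rose and 0 fell, and those that rose include the heme oxygenase gene Hmox1 (2.38, SE 0.34, adjusted p = 0.00672), which had 1.70 with NI1 (SE 0.40, adjusted p = 0.139). Lox (4.96, adjusted p = 0.0595), Ero1l (-1.04, adjusted p = 0.0513), Hilpda (-0.89, adjusted p = 0.224) and Flt1 (-0.79, adjusted p = 0.307) did not pass in edgeR. DESeq2 without NI1 called 3 of these targets higher, Lox among them, and 1 lower (Ero1l), against 12.3% and 6.7% of all genes. It also called Lox and Ero1l with all 9 libraries. The first gene of that list, Vegfa, stood at 192 to 423 CPM in tumors and 289 to 390 CPM in islets.

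Hk1, Ldha and Slc16a1 were read beside 20 further genes kept low in beta cells. Of these 1 rose without NI1, the transcription factor gene Maf (2.85, SE 0.71, adjusted p = 0.0412 from edgeR), and 0 fell. With NI1, Maf had 2.32 (SE 0.61, adjusted p = 0.148). Its level was 11.2 to 65.8 CPM in tumors, 12.05 CPM in NI1, 5.34 CPM in NI2 and 4.98 CPM in NI3. It was highest in M4, which also held the highest fibroblast, pericyte and macrophage sums. Cd302 (2.40, adjusted p = 0.0805), Tst (1.56, adjusted p = 0.106), Cxcl12 (-1.87, adjusted p = 0.0734), Zfp36l1 (-0.72, adjusted p = 0.279) and Arhgdib (-0.74, adjusted p = 0.374) were the next in either direction. DESeq2 without NI1 called 3 higher (Maf, Cd302 and Tst) and 1 lower (Cxcl12), against 12.3% and 6.7% of all genes. The median log2 fold change of the 20 was 0.35 without NI1, against 0.05 over all genes. The part of cells other than beta cells in Maf and in this median was not tested. None of Hk1, Ldha and Slc16a1 was called in any of the alternatives run for them.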

How the data were processed

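RNA of 6 tumors and 3 islet samples was sequenced as single-end reads. Per the study's methods and the submitters' processing notes, reads were trimmed with Trimmomatic 0.38 and quantified with salmon 1.4.0 on mm10. The authors deposited estimated counts per gene as whole numbers, under the name TPM and unscaled between libraries. The summing of transcripts to genes is not given in the sources used here. Of 54347 identifiers, 54094 matched GENCODE (GRCm38), and the rest carried 0.0121% of counts.

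The filter of 1 CPM in 3 of 9 libraries left 15532 genes. These were TMM-scaled and tested by edgeR 4.0.16 (R 4.3.3, two-sided quasi-likelihood, Benjamini-Hochberg), with all libraries and, on the same genes, without NI1. DESeq2 1.42.0, limma 3.58.1 (log2(CPM + 1)), other scalings and filters, and leaving out each library were alternatives. The fits were tested on simulated data. Standard errors are the log2 fold change over the square root of F. Levels per kb used the union of exons. Floors cover counting error only.

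The genes and lists were chosen with earlier results of these data known. Full statistics were given for genes passing in either islet comparison, for Hk1, Ldha and Slc16a1 and, between the tumor kinds and in each other list, for the 3 smallest p-values in each direction. Eno2, Adm, Ldhb (against islets), Pgk1 and Bnip3 were added after their values were seen. Some genes of the other lists are not reported here. The study's methods call its samples biological replicates, though the labels tie no library to a named animal.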

Additional observations from a re-analysis of the deposited data

Results flagged for a closer look

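In 5 of the 37 genes, 1 tumor lay far from the other 5, by Dixon's test of the gap to the nearest value over the range at the 95% level. Chance flags about 1 in 20 genes by this test if values are normally distributed, which was not checked. The 6 tumors were read as a single group although they are of 2 kinds. The share flagged over all genes was not computed, so the 5 are not read as an excess. In M4, Hk2 stood at 7.25 CPM where the next tumor was at 3.37, and Slc16a1 at 3.84 CPM where the next was at 1.97. In M3, Egln3 stood at 9.49 CPM where the next was at 2.83, and Adm at 5.82 CPM where the next was at 2.38. In M5, Gpi1 stood at 202 CPM where the next was at 144. For 0 genes did all functional tumors lie on one side of every islet library and all non-functional tumors on the other.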

How the results depend on the processing

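Of the log2 fold changes given with a standard error, 678 values under alternatives kept their direction and side of the threshold, 30 newly passed, 40 no longer passed and 4 changed sign. The 4 were of Hk1, at 0.09 with library totals only (0.08 without NI1), 0.02 without M2 and 0.06 without NI3, and leaving out each library in turn gave -0.30 to 0.06. Against all 3 islet libraries, where 0 of the 36 genes were called in either direction, DESeq2 called 3 higher and 3 lower (4.92% and 3.14% of all genes), and leaving out NI1 and M6 (chosen after seeing the data) gave 1 higher and 3 lower (5.75% and 3.59%). An unadjusted p gave 5 higher and 4 lower. Leaving out 1 library gave 0 to 2 higher and 0 to 3 lower, above 0 only without NI1. Without NI1, where 2 were called higher and 3 lower, 1 was higher with DESeq2 size factors or the tumor kinds as separate groups, and 0 were lower with library totals only. An unadjusted p without NI1 gave 4 of the 36 higher and 6 lower, against 2327 and 1793 of the 15532 genes tested. Leaving out a further library gave 0 to 2 higher and 0 to 3 lower. Between the tumor kinds only the unadjusted p moved the count, to 1 higher and 1 lower. Causes other than the fewer libraries were not tested. The level ratios per kb in islets moved with the longest transcript, Aldoa to Aldoc from 50.6 to 81.2 and Epas1 to Hif1a from 2.14 to 1.74.

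The shared replicate numbers of M1 to M3 and NI1 to NI3 name no shared animal, and deviations from the group means correlated at -0.052, 0.03 and -0.159 for the same-numbered samples, so they were not taken as pairs. With a replicate block, 0 of the 36 genes were higher and 0 lower against all 3 islet libraries, as were 0.0773% and 0.18% of all genes. With 3 islet libraries, of which NI1 resembled a tumor, and with depth giving floors of 0.0425 to 0.119 CPM, Car9 was tested only without the filter, where it was called higher without NI1 (adjusted p = 0.0482), and intervals of low genes such as Egln3 and Slc16a3 span several fold.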

Other observations

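The table holds a second gene named Aldoa (ENSMUSG00000114515), on the minus strand of chromosome 7 from 126800790 to 126809108, next to the Aldoa described in the report and kept apart from it. Its level was 1.71, 1.19 and 3.58 CPM in M1, M2 and M3, 0.832, 0.934 and 1.53 CPM in M4, M5 and M6, and 1.39, 0.317 and 0.149 CPM in NI1, NI2 and NI3. All tumors were thus above NI2 and NI3, opposite to the main Aldoa gene. Without NI1 its log2 fold change was 2.79 (SE 0.81, adjusted p = 0.0622 by edgeR), and with NI1 1.39 (SE 0.77, adjusted p = 0.342). DESeq2 gave adjusted p = 0.00689 without NI1 and 0.29 with it.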
